A study of Mus musculus with 59 samples.

Results

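The genes described here encode the secreted Wnt ligands, their receptors and the proteins that tune them. The rule that picked them used gene symbols alone and took 54 of the 57180 rows of the count table. It was set with earlier results of these data known. The 54 genes comprised 19 Wnt ligands, 10 Frizzled receptors, 4 co-receptors (Lrp5, Lrp6, Ror1 and Ror2), 4 R-spondins, 3 R-spondin receptors (Lgr4, Lgr5 and Lgr6), 11 genes grouped by name with the secreted antagonists, and 3 genes of the nuclear response (Lef1, Tcf7 and Axin2). Their messenger RNA was measured by sequencing of poly(A) RNA in 59 libraries from the cortex and the hippocampus of 30 male mice, in a study of how loss of 1 copy of Slc25a1 and of Mrpl40 combine in the brain. Both genes lie in the mouse segment that matches the human 22q11.2 deletion. Animals labelled Mrpl40 +/+,Slc25a1 +/+ (wild type) gave 9 cortex and 8 hippocampus libraries. Those labelled Mrpl40 +/+,Slc25a1 -/+ (Slc25a1 het), Mrpl40 -/+,Slc25a1 +/+ (Mrpl40 het) and Mrpl40 -/+,Slc25a1 -/+ (double het) gave 7 libraries of each tissue per genotype. Each animal carries its own number in the labels, and 29 of them gave both tissues. For strain, age, the kind of mutation and any treatment, the sources used here give nothing.

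Wnt proteins are lipid-modified ligands that bind Frizzled receptors at the cell surface. With Lrp5 or Lrp6 as co-receptor this stabilises beta-catenin, which acts with Tcf and Lef factors on target genes such as Axin2, whereas Ror receptors carry signals that do not use beta-catenin. R-spondins bind Lgr receptors and keep Frizzled receptors at the surface by clearing the ubiquitin ligases Znrf3 and Rnf43, and secreted antagonists bind either the Wnt itself or its co-receptor. In the forebrain the pathway is known for patterning the hippocampus from the cortical hem, for adult neurogenesis in the dentate gyrus and for synapse formation.

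Sequences upstream of 3 genes picked from the tissue results are shown. Among the genes of this set that were tested between wild-type tissues, Rspo1 had the smallest adjusted p and Ror1 the largest rise in hippocampus. Wnt8b, too low to be tested, was the ligand found almost entirely in hippocampus. Each is the 250 bases before the annotated start, 5′ to 3′ on the gene's strand (plus for all 3), from RefSeq on GRCm38.p6, with CG dinucleotides in capitals. The windows lie at chr4:124986180-124986429, chr4:100095541-100095790 and chr19:44493222-44493471 in the order below.
Rspo1: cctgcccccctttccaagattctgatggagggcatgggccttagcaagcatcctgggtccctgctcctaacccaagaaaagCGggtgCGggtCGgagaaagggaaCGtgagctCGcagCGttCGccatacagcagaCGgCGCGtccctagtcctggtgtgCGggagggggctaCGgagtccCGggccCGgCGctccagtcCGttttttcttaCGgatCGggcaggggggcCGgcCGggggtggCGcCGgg
Ror1: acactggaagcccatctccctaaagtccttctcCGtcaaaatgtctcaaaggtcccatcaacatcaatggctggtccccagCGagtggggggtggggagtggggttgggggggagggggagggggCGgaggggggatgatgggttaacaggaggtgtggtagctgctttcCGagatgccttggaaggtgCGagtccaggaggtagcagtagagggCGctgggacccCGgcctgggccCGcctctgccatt
Wnt8b: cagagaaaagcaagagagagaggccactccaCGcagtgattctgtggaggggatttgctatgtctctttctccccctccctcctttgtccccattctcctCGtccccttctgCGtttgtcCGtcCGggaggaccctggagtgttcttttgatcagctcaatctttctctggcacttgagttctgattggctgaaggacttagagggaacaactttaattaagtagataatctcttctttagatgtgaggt
The Rspo1 window holds 22 CG dinucleotides, that of Ror1 8 and that of Wnt8b 5. With the 50 bases after the start added, the counts are 29, 10 and 6 in that order. The RefSeq table held 43 windows for 36 of the 54 genes, each reaching from 250 bases before to 50 after a start, and their median CG count of 24 stood against 7 over all 32851 windows of that length. The Tcf/Lef motif was searched as CTTTGAT and its reverse complement ATCAAAG, and occurred in 2 of the 43 windows (4.65%) against 1225 of all windows (3.73%). The 2 matches were ATCAAAG 51 bases before a start of Wnt11 and CTTTGAT 71 bases before a start of Wnt5b. A match is a stretch of letters and was not tested as a binding site.

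Library totals ranged from 21443017 to 32120906 counts. Values are CPM, read counts scaled to the depth of the library and to its composition by the trimmed mean of M values (TMM). Marker lists separated the tissues: the sum of 9 neocortical genes was 1806 to 2473 CPM in cortex and 449 to 667 in hippocampus, and that of 10 hippocampal genes was 222 to 289 and 997 to 1994. The Slc25a1 level went against the label in both tissues of 6 animals (2 wild type, 2 Slc25a1 het and 2 double het), so a genotype below is the labelled one, and Mrpl40 averaged 17.4 to 17.9 CPM in every cortex group and 15.2 to 15.9 in every hippocampus group. Of the hippocampus libraries, 4 stood apart in markers: Slc25a1 het replicate 3 in 10 cerebellar genes (592 CPM against a median of 10.5), Mrpl40 het replicate 5 and double het replicate 6 in choroid plexus genes without Kl (52.8 and 67.8 against 9.01), and wild type replicate 8 in hippocampal genes (997 against 1540). In bulk tissue, fewer cells of a type and less RNA per cell cannot be told apart.

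Hippocampus and cortex differed in most of these genes. In wild-type animals 48 of the 54 genes passed the filter on low counts, and 36 of them (75%) passed the test, 15 higher and 21 lower in hippocampus, where 60.6% of all 21354 genes tested passed. The shares of all genes that were higher and lower were 30.4% and 30.1%. Of the 48 genes, Rspo1, Dkkl1 and Ror1 carried the widest differences. The median log2 difference was -0.16 over the 48 genes and 0.01 over all genes. Differences are hippocampus minus cortex on the log2 scale with their standard error (SE), from the quasi-likelihood test of edgeR with the animal as a block, and adjusted p-values are Benjamini-Hochberg over all genes tested. Wild-type libraries of the tissues did not overlap for 21 of the 48 genes, where this held for 26.5% of all genes, and over all 59 libraries they did not overlap for 10, where this held for 15.0%. Those 10 were Rspo1, Dkkl1, Sfrp1, Ror1, Fzd3, Fzd8, Wnt4, Wnt7b, Wnt10a and Wnt10b.

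**Figure D1:**
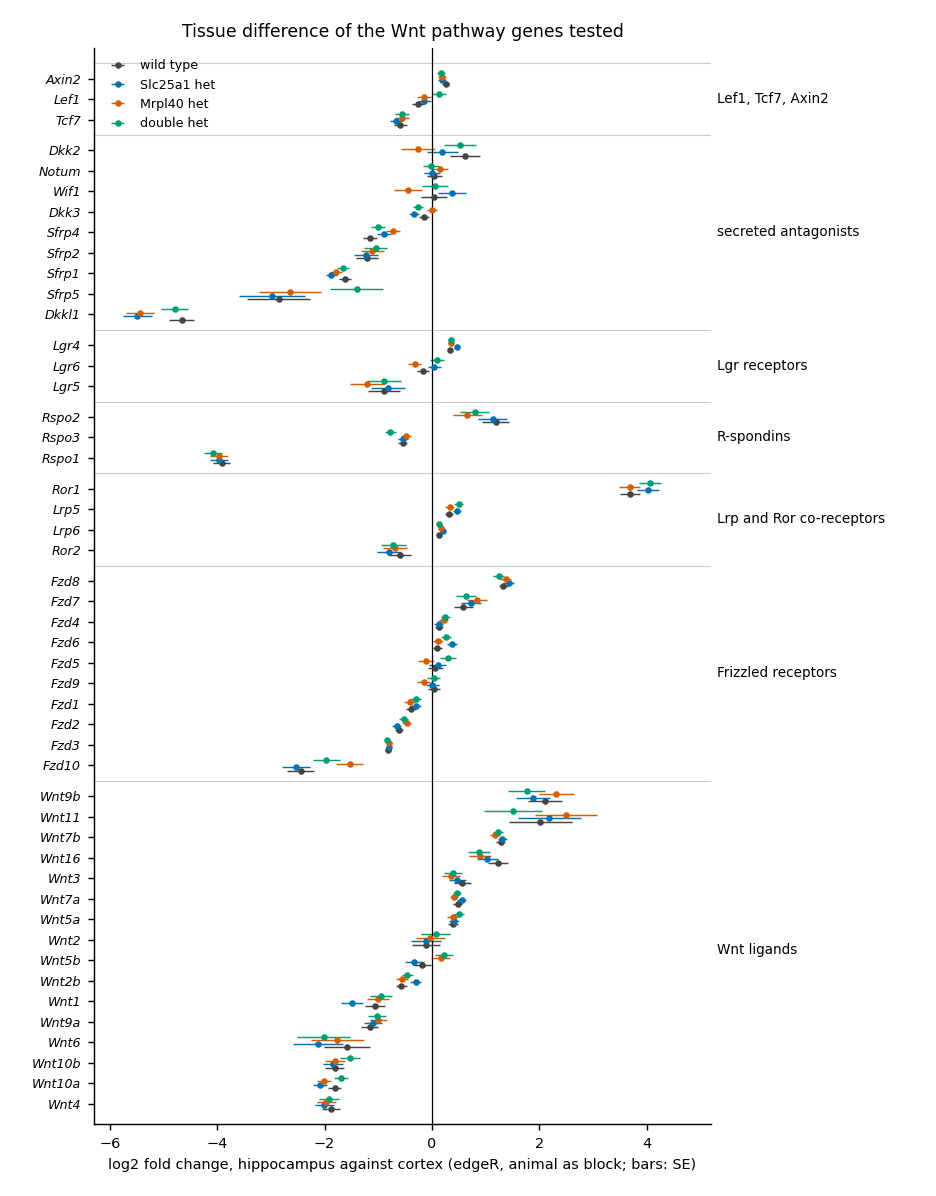
Log2 difference between hippocampus and cortex (x axis, hippocampus minus cortex; points with SE bars) for the 48 genes that passed the filter, grouped by role on the y axis, with 1 colour per genotype. Rspo1 and Dkkl1 lie farthest to the left, between -3.91 and -5.49, and Ror1 farthest to the right, between 3.68 and 4.07, in all 4 genotypes.

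Of the R-spondins, which amplify Wnt signals through Lgr receptors, Rspo1 fell and Rspo2 rose in hippocampus. Rspo1 (ENSMUSG00000028871) ranged from 19.8 to 27.9 CPM with a median of 24.4 in the 9 wild-type cortex libraries, and from 1.10 to 2.78 with a median of 1.55 in the 8 hippocampus libraries. The groups were far apart, and cortex was higher in 29 of 29 animals of all genotypes. The log2 difference was -3.91 ± 0.16 (SE; adjusted p = 8.25e-19 in edgeR), and within an animal the ratio of cortex to hippocampus ran from 8.45 to 28.9 with a median of 15.9. Rspo2 went the other way, from 6.08 to 9.69 CPM in cortex (median 7.18) to between 12.5 and 36.0 in hippocampus (median 14.6). The wild-type groups did not overlap, and hippocampus was higher in 26 of 29 animals (1.19 ± 0.25, adjusted p = 0.000193). The highest Rspo2 value belonged to hippocampus replicate 8, which of all hippocampus libraries was lowest in hippocampal markers and highest in neocortical markers (667 CPM). Rspo3 was lower in hippocampus, at 7.48 to 15.4 CPM (median 9.54) against 12.0 to 17.2 (median 14.7), with overlapping groups but a fall in 29 of 29 animals (-0.55 ± 0.09, adjusted p = 4.05e-06). Rspo4 did not pass the filter, with 72 counts over 30 cortex libraries and 23 over 29 hippocampus libraries.

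Per kilobase of exon, which allows levels of different genes to be compared, the R-spondins summed to 18.8 ± 1.37 CPM per kilobase (SD, n = 9) in wild-type cortex and 7.72 ± 2.11 (n = 8) in hippocampus. Rspo1 made up 66.9% ± 3.22 of that sum in cortex and 11.3% ± 4.44 in hippocampus. Rspo3 went from 25.1% ± 2.27 to 44.0% ± 7.06 and Rspo2 from 7.81% ± 1.80 to 44.5% ± 7.28. The leading R-spondin thus was Rspo1 in cortex, and Rspo2 and Rspo3 stood level in hippocampus.

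Of the R-spondin receptors, Lgr4 and Lgr6 differed less in wild type than any R-spondin tested. Lgr4, the most abundant of the 3 per kilobase, was 31.8 to 36.6 CPM in wild-type cortex (median 34.5) and 40.0 to 47.0 in hippocampus (median 42.7). The groups did not overlap and the difference was 0.33 ± 0.04 (adjusted p = 2.80e-08), with hippocampus higher in 29 of 29 animals. Lgr5, a marker of stem cells in several tissues, was low and fell from a median of 1.46 CPM (0.767 to 2.07) to 0.744 (0.336 to 1.5), with overlap (-0.89 ± 0.30, adjusted p = 0.0115). Lgr6 did not pass the test in wild type, with a median of 8.12 CPM in cortex and 7.44 in hippocampus (-0.17, adjusted p = 0.19).

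Of the 19 Wnt ligands, 16 were tested in wild type, and 7 were higher and 7 lower in hippocampus (87.5% passed, where 60.6% of all genes did). Among those with the highest levels per kilobase, Wnt9a, Wnt4 and Wnt10a were higher in cortex and Wnt7b and Wnt7a in hippocampus. Wnt4, which is known for signalling with and without beta-catenin, was 23.2 to 29.7 CPM in wild-type cortex (median 26.3) and 4.77 to 12.9 in hippocampus (median 7.46). No hippocampus library of any genotype reached the cortex range, and the ratio of cortex to hippocampus within an animal was 1.91 to 6.20 with a median of 3.72 (-1.89 ± 0.16, adjusted p = 1.02e-10). Wnt9a was 22.9 to 28.7 CPM in cortex (median 25.9) and 6.19 to 16.2 in hippocampus (median 11.8), without overlap in wild type (-1.16 ± 0.16, adjusted p = 3.95e-07). Wnt10a, whose gene neighbours that of Wnt6, fell from 7.69 to 13.7 CPM (median 10.3) to between 2.02 and 3.92 (median 2.73), with no overlap in any genotype (-1.81 ± 0.12, adjusted p = 8.80e-15). These 3 ligands were lower in hippocampus in 29 of 29 animals each.

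Wnt7b, a ligand that acts through beta-catenin and is known for its part in brain vessel growth, was the most abundant ligand in hippocampus. It was 17.9 to 28.7 CPM in wild-type cortex (median 21.0) and 47.0 to 57.1 in hippocampus (median 51.6). The groups did not overlap in any genotype, and the ratio of hippocampus to cortex was 1.77 to 3.86 with a median of 2.41 (1.28 ± 0.09, adjusted p = 9.94e-14). An antisense gene, AU022754, shares 6.61% of the Wnt7b exon bases and averaged 1.39 CPM in cortex and 3.77 in hippocampus. Wnt7a, its close relative, was 7.16 to 9.26 CPM in cortex (median 8.37) and 10.2 to 15.8 in hippocampus (median 11.2), again without overlap in wild type (0.47 ± 0.08, adjusted p = 1.61e-06). Wnt5a, which is known for signalling through Ror receptors, was 6.28 to 13.4 CPM in cortex (median 8.23) and 9.04 to 15.4 in hippocampus (median 11.5). Its groups overlapped, yet hippocampus was higher in 29 of 29 animals (0.38 ± 0.09, adjusted p = 0.000428).

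In wild-type cortex the 19 ligands summed to 31.7 ± 1.38 CPM per kilobase, of which Wnt9a made up 24.6% ± 1.08, Wnt4 19.9% ± 1.72, Wnt7b 13.8% ± 1.81 and Wnt10a 13.6% ± 1.98. In hippocampus the sum was 26.8 ± 1.13, of which Wnt7b made up 39.4% ± 1.71, Wnt7a 13.7% ± 1.62, Wnt9a 13.1% ± 3.27 and Wnt4 6.59% ± 2.09. The leading ligand thus changed from Wnt9a to Wnt7b, and in hippocampus 1 ligand held a larger share than any did in cortex. In hippocampus Wnt7a and Wnt9a, next after Wnt7b, differed by less than the SD of Wnt9a.

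**Figure D2:**
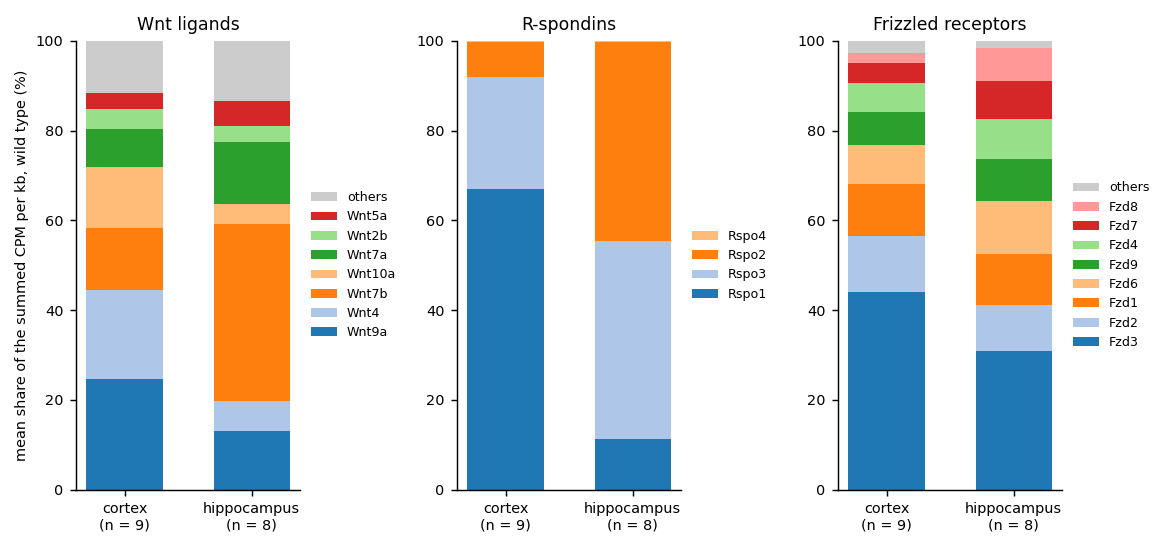
Share of the summed CPM per kilobase of exon held by each gene (stacked bars, percent, wild-type means) for ligands, R-spondins and Frizzled receptors in cortex (n = 9) and hippocampus (n = 8). Rspo1 fills 66.9% of the R-spondin bar in cortex and 11.3% in hippocampus, and Wnt7b 13.8% and 39.4% of the ligand bar.

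The other ligands were at low levels. Wnt10b, whose gene lies beside Wnt1, was 1.51 to 2.37 CPM in wild-type cortex (median 2.03) and 0.354 to 1.15 in hippocampus (median 0.455), without overlap (-1.81 ± 0.18, adjusted p = 6.50e-11). Wnt1 itself fell from 0.850 to 1.44 CPM (median 1.15) to between 0.283 and 0.711 (median 0.604), also without overlap (-1.06 ± 0.19, adjusted p = 9.79e-06). Both neighbours were lower in hippocampus. Wnt6 was 0.232 to 1.87 CPM in cortex (median 0.728) and 0.0404 to 0.575 in hippocampus (median 0.196), with overlap (-1.58 ± 0.42, adjusted p = 0.00175). Wnt2b, a ligand of the cortical hem in development, was 5.02 to 7.69 CPM in cortex (median 5.94) and 3.25 to 5.05 in hippocampus (median 4.10), with a small overlap (-0.57 ± 0.10, adjusted p = 5.00e-06).

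Low ligands that rose in hippocampus were Wnt9b, Wnt16, Wnt11 and Wnt3. Wnt9b was 0.140 to 0.901 CPM in wild-type cortex (median 0.273) and 0.752 to 2.10 in hippocampus (median 1.85), with overlap at 1 cortex library (2.10 ± 0.32, adjusted p = 8.93e-07). Wnt16 was 0.722 to 1.46 CPM in cortex (median 0.923) and 1.69 to 3.12 in hippocampus (median 2.48), without overlap (1.24 ± 0.19, adjusted p = 6.28e-07). Hippocampus was higher in 28 of 29 animals for both. Wnt11 rested on 0 to 10 counts per wild-type cortex library and 3 to 13 per hippocampus library (2.01 ± 0.59, adjusted p = 0.00358), with overlapping groups. Wnt3, whose gene lies beside Wnt9b, was 1.02 to 1.5 CPM in cortex (median 1.19) and 1.28 to 2.54 in hippocampus (median 1.92), with overlap (0.56 ± 0.16, adjusted p = 0.00252). Wnt2 (-0.11 ± 0.27, adjusted p = 0.735) and Wnt5b (-0.19 ± 0.16, adjusted p = 0.322) did not pass the test in wild type.

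Wnt8b, a ligand of the embryonic hippocampal primordium, was too low for the filter and was not tested. Over 30 cortex libraries it had 8 counts in all, with 22 libraries at 0 and none above 1. Over 29 hippocampus libraries it had 211 counts, with 1 to 20 per library, a median of 6 and none at 0. Scaled to depth, hippocampus was higher in 29 of 29 animals. Wnt3a and Wnt8a, also below the filter, had 31 and 38 counts over all cortex libraries and 60 and 37 over all hippocampus libraries.

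Of the 10 Frizzled receptors, 4 were lower and 2 higher in wild-type hippocampus, a share of 60% that lay near the 60.6% of all genes. Fzd3, the most abundant per kilobase in both tissues and a receptor known for axon guidance, was 116 to 150 CPM in wild-type cortex (median 130) and 67.5 to 79.8 in hippocampus (median 74.3). The tissues did not overlap in any genotype, and Fzd3 was lower in hippocampus in 29 of 29 animals (-0.82 ± 0.04, adjusted p = 2.68e-17). Fzd8 went the other way, from 2.83 to 3.71 CPM (median 3.21) to between 6.77 and 10.1 (median 8.00), again with no overlap in any genotype (1.33 ± 0.09, adjusted p = 1.17e-14). Fzd10 was low, at 1.10 to 1.88 CPM in cortex (median 1.33) and 0 to 0.473 in hippocampus (median 0.254), and its wild-type groups did not overlap (-2.45 ± 0.26, adjusted p = 3.47e-10).

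Fzd2 was 9.08 to 12.1 CPM in wild-type cortex (median 10.9) and 5.28 to 8.33 in hippocampus (median 7.5), without overlap (-0.61 ± 0.08, adjusted p = 1.32e-08). Fzd1, its close relative, overlapped between tissues (-0.39 ± 0.09, adjusted p = 0.000702), and Fzd7, the third of this subfamily, was higher in hippocampus with overlap (0.58 ± 0.18, adjusted p = 0.00529). Fzd4, Fzd5, Fzd6 and Fzd9 did not pass the test in wild type, with log2 differences of 0.04 to 0.13. Per kilobase the Frizzled receptors summed to 23.5 ± 1.29 CPM in wild-type cortex and 18.8 ± 0.734 in hippocampus. Fzd3 made up 44.0% ± 2.51 of the sum in cortex and 30.8% ± 2.03 in hippocampus, and Fzd8 2.34% ± 0.297 and 7.39% ± 1.02.

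Among the co-receptors, Ror1 showed the largest rise of all 48 genes. Ror1, a receptor tyrosine kinase that binds Wnt5a, was 0.419 to 0.722 CPM in wild-type cortex (median 0.509) and 5.84 to 7.66 in hippocampus (median 6.89). No library of either tissue came near the other, in any genotype, and the ratio of hippocampus to cortex within an animal was 7.36 to 40.6 with a median of 16.1 (3.68 ± 0.19, adjusted p = 7.65e-18). Ror2, its paralog, went the other way at low level, with a median of 0.804 CPM (0.541 to 1.43) in cortex and 0.526 (0.406 to 0.947) in hippocampus (-0.60 ± 0.21, adjusted p = 0.0151). The wild-type groups of Ror2 overlapped, and its adjusted p was 0.0555 without wild type replicate 6 and 0.0511 without the 6 animals whose Slc25a1 level went against the label. Lrp6, the most abundant co-receptor, was 41.8 to 47.4 CPM in cortex (median 45.1) and 46.6 to 51.5 in hippocampus (median 49.4), with overlap and a small rise that was seen in 28 of 29 animals (0.14 ± 0.04, adjusted p = 0.00122). Lrp5 rose in 29 of 29 animals (0.31 ± 0.08, adjusted p = 0.000643). Per kilobase, Ror1 made up 1.98% ± 0.396 of the 4 co-receptors in wild-type cortex and 19.1% ± 1.53 in hippocampus.

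**Figure D3:**
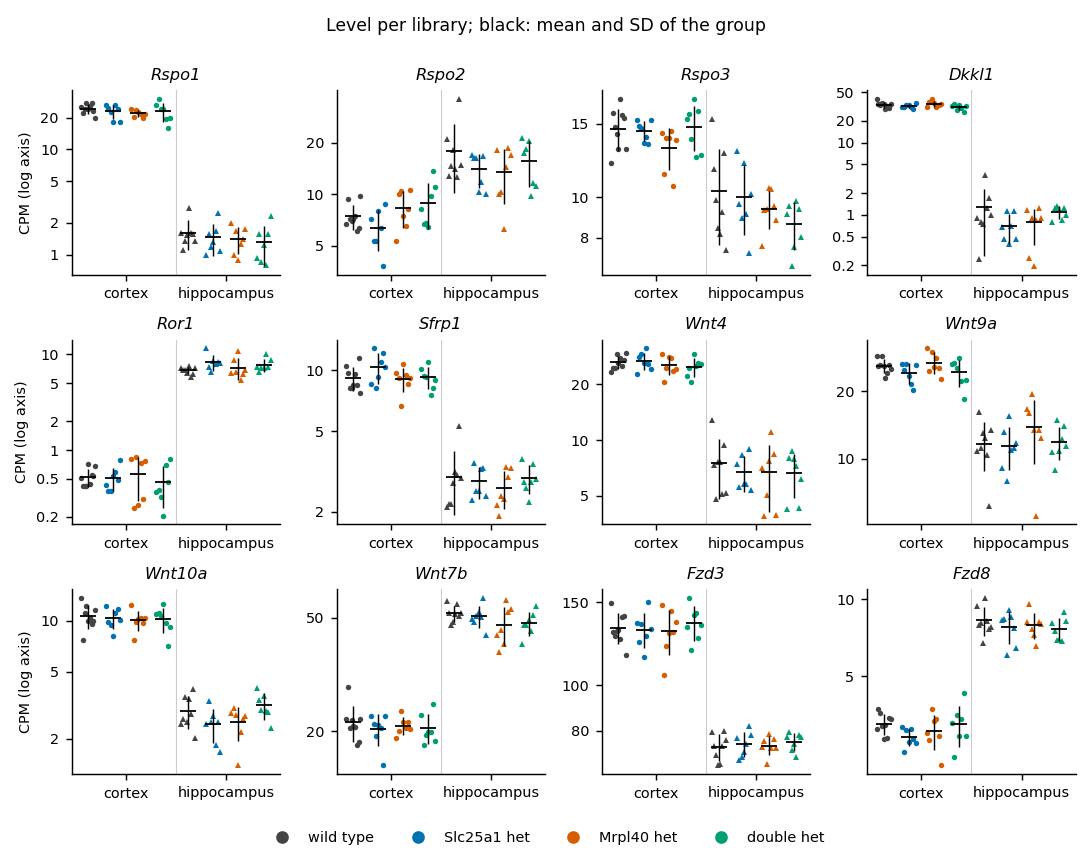
Level per library (y axis, CPM on a log axis) of 12 genes in cortex (circles) and hippocampus (triangles), coloured by genotype, with the mean and SD of each group in black. Cortex and hippocampus points do not overlap for Rspo1, Dkkl1, Ror1, Sfrp1, Wnt4, Wnt10a, Wnt7b, Fzd3 and Fzd8, whereas they do for Rspo2, Rspo3 and Wnt9a.

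Of the genes grouped with the antagonists, 9 were tested in wild type, and 5 were lower and 0 higher in hippocampus in edgeR (55.6% passed, where 60.6% of all genes did), with 6 at an unadjusted p under 0.05, as were 63.9% of all genes. Dkkl1 is named for its likeness to Dickkopf proteins and is closest to Dkk3, and its part in Wnt signalling is not settled. It was 28.7 to 40.2 CPM in wild-type cortex (median 34.0) and 0.244 to 3.52 in hippocampus (median 0.952). The tissues were far apart in every genotype, and the ratio of cortex to hippocampus within an animal ran from 8.14 to 183 with a median of 35.7 (-4.66 ± 0.23, adjusted p = 1.30e-15). Per kilobase Dkkl1 averaged 21.2 CPM in cortex and 0.806 in hippocampus. Dkk3, a divergent Dickkopf, was by far the most abundant of the group in both tissues, with 103 CPM per kilobase in cortex and 92.5 in hippocampus. Its range of 309 to 393 CPM in cortex (median 349) overlapped that of 215 to 379 in hippocampus (median 305), and the difference did not pass the test in wild type (-0.15 ± 0.09, adjusted p = 0.145). Without the animals of the 4 hippocampus libraries that stood apart in markers it did (-0.20, adjusted p = 0.0203).

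The secreted Frizzled-related proteins, decoys that bind Wnts, were lower in hippocampus for all 4 genes tested (Sfrp1, Sfrp2, Sfrp4 and Sfrp5). Sfrp1 was 7.72 to 11.5 CPM in wild-type cortex (median 8.47) and 2.10 to 5.27 in hippocampus (median 2.86), with no overlap in any genotype (-1.62 ± 0.11, adjusted p = 2.15e-15). Sfrp4 was 2.40 to 4.44 CPM in cortex (median 2.83) and 0.717 to 2.18 in hippocampus (median 1.42), without overlap in wild type (-1.15 ± 0.13, adjusted p = 7.37e-10). Sfrp2 (-1.21 ± 0.21, adjusted p = 5.52e-06) and Sfrp5 (-2.85 ± 0.59, adjusted p = 0.000111) had wild-type groups that did not overlap either. Sfrp5 rested on 8 to 28 counts per wild-type cortex library and 0 to 5 per hippocampus library. Wif1, which binds Wnts, and Notum, the enzyme that removes their lipid, had log2 differences of 0.04 each and adjusted p-values of 0.907 and 0.810. Dkk2, an antagonist of Lrp5 and Lrp6, did not pass (0.62 ± 0.28, adjusted p = 0.0591), but it did without wild type replicate 3, 5 or 7 or Mrpl40 het replicate 7 (adjusted p = 0.0213, 0.0227, 0.0452 and 0.0402). Dkk1 and Dkk4, below the filter, had 11 and 34 counts over all cortex libraries and 12 and 14 over all hippocampus libraries.

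Of the genes of the nuclear response, Axin2 rose slightly in wild-type hippocampus, Tcf7 fell and Lef1 did not pass the test. Axin2, the usual readout of beta-catenin signalling, was 27.9 to 34.0 CPM in wild-type cortex (median 30.7) and 33.5 to 41.0 in hippocampus (median 35.8). The ranges overlapped slightly, and hippocampus was higher in 25 of 29 animals (0.25 ± 0.07, adjusted p = 0.00183). Tcf7, a transcription factor that partners beta-catenin, was lower, at 2.48 to 3.45 CPM (median 3.13) against 3.36 to 5.34 (median 4.86), with a slight overlap (-0.59 ± 0.12, adjusted p = 6.87e-05). Lef1, a factor of the same family, did not pass (-0.26 ± 0.12, adjusted p = 0.0545). It did in 5 of the fits that leave out 1 animal, namely wild type replicate 3, Slc25a1 het replicate 5 and Mrpl40 het replicates 3, 5 and 6 (adjusted p from 0.0310 to 0.0499).

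Among 55 further genes of the pathway listed apart from the 54 (beta-catenin and its destruction complex, Dishevelled and Tcf proteins, planar polarity genes, Wnt secretion factors and other modulators), 53 were tested. In wild type 28 were higher and 14 lower in hippocampus and 11 did not pass the test, where 30.4% of all genes were higher and 30.1% lower. The 4 largest changes were Gpc4, a heparan sulfate carrier of Wnts (3.07 ± 0.11), Draxin, a guidance cue that binds Lrp6 (2.76 ± 0.23), Sostdc1, an antagonist of Lrp6 and of bone morphogenetic proteins (2.00 ± 0.24), and Tpbg, a membrane inhibitor (-1.72 ± 0.12). Ctnnb1, which encodes beta-catenin and was chosen after its value was seen, rose by 0.54 ± 0.04.

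The tissue pattern was read in each genotype. In the labelled Slc25a1 het animals 38 of 48 genes passed (60.4% of all genes), 37 passed in Mrpl40 het (60.3%), while double het animals gave 38 (57.5%). In all 4 genotypes and in 1 direction, 34 of the 48 passed (13 higher, 21 lower; 70.8%), against 9610 of 21354 genes (45.0%). Rspo1 differed by -3.97, -3.96 and -4.08 in the 3 heterozygous groups in that order, Dkkl1 by -5.49, -5.44 and -4.79, and Ror1 by 4.02, 3.68 and 4.07. The 3 tests of whether a genotype difference was unlike in the tissues called 0 of the 48 genes each in edgeR, against 0% of all genes for Slc25a1 het, 0% for Mrpl40 het and 0.0234% for double het, and 0 in DESeq2. At an unadjusted p under 0.05 were 2, 3 and 1 of the 48 genes, against 6.00%, 5.83% and 5.03% of all genes.

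A further 6 genes passed in 1 to 3 of the genotypes, and 0 of them passed the tests of unlike effects just given. Of all 21354 genes, 6729 passed in 1 to 3 genotypes. Fzd6 passed in Slc25a1 het (0.38, adjusted p = 0.000665) and in double het (0.27, adjusted p = 0.0130) but not in wild type or Mrpl40 het, and in double het it did not pass without the 6 animals whose Slc25a1 level went against the label (adjusted p = 0.138). Fzd4 passed in Mrpl40 het (0.22) and double het (0.25), and lost this in Mrpl40 het without replicate 5 or 7 (adjusted p = 0.0887 and 0.0580) and in double het without replicate 1 (0.0511). Dkk3 passed in Slc25a1 het (-0.34, adjusted p = 0.00227) and in double het (-0.27, adjusted p = 0.0156), there not without replicate 6 or 7 (0.0616 and 0.0584). Lgr6 passed in Mrpl40 het (-0.33, adjusted p = 0.0229), but not without replicate 1, 3 or 4 (0.0815, 0.110 and 0.0604). Wnt3 passed in 3 genotypes but not in Mrpl40 het (adjusted p = 0.0721), where it did without the 6 animals (0.0331), without Mrpl40 het replicate 4 (0.0460) or without Slc25a1 het replicate 3 (0.0439). In Slc25a1 het the Wnt3 difference went from 0.47 to 0.27 (adjusted p = 0.138) without replicate 3, the library high in cerebellar genes, and it did not pass without replicate 7 (0.0502). In double het Wnt3 (0.39, adjusted p = 0.0486 in edgeR) did not pass in DESeq2 (0.0828), with no filter (0.0703), without the animal block (0.0598), or without double het replicate 1, 3, 4, 5 or 7 (0.0540 to 0.123), nor in some fits without a single animal of another genotype (0.0503 to 0.0527). Axin2 passed in 3 genotypes but not in double het (adjusted p = 0.0513), where it did without the animal block (0.0216) and in 7 of the fits that leave out 1 animal. The Axin2 call was lost in Slc25a1 het without replicate 5, 6 or 7 (0.0636 to 0.119) and in Mrpl40 het without replicate 2, 3, 6 or 7 (0.0548 to 0.120).

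Some of the 34 genes that passed in all 4 genotypes also lost a call when animals were left out. Rspo2 in Mrpl40 het (0.65, adjusted p = 0.0384) did not pass without replicate 1, 5, 6 or 7 (0.148, 0.0972, 0.110 and 0.0690), and in double het (0.79) not without replicate 4 (0.0543). Lgr5 did not pass in Slc25a1 het (-0.82) without replicate 1, 2, 4 or 6 (adjusted p = 0.0514 to 0.0988) or in double het (-0.90) without replicate 1 or 6 (0.0578 and 0.0928). Sfrp5 in double het (-1.41) did not pass without replicate 5 or 6 (0.0510 and 0.0522). Wnt2b in Slc25a1 het (-0.31) did not pass without replicate 1 or 4 (0.0709 and 0.0679), and Fzd1 in Slc25a1 het (-0.31) not without replicate 5 (0.0553). Without the 6 animals whose Slc25a1 level went against the label, calls were lost in double het for Wnt11 (0.65, adjusted p = 0.352), Sfrp5 (-0.90, 0.180), Ror2 (-0.49, 0.119), Lgr5 (-0.63, 0.0919) and Fzd1 (-0.22, 0.0517), and in Slc25a1 het for Wnt2b (-0.22, 0.132). With no filter on low counts, calls were lost in Mrpl40 het for Rspo2 (adjusted p = 0.0733), Lgr6 (0.0617) and Axin2 (0.0580) and in Slc25a1 het for Lgr5 (0.0716) and Axin2 (0.0739). Without the animals of the 4 hippocampus libraries that stood apart in markers, they were lost in Mrpl40 het for Rspo2 (0.0647) and Fzd4 (0.0743) and in Slc25a1 het for Wnt3 (0.144), and without the animal block in double het for Dkk3 (0.0516).

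Within a tissue, some of these genes varied from library to library together with markers of cell types or subfields. Relations were computed between the log2 CPM of each gene and the log2 summed CPM of 11 marker lists, 929 in all, and 31 had a Benjamini-Hochberg adjusted p under 0.05 by both correlations and kept an r beyond 0.4 in size without the 2 libraries farthest out in the markers. Among the 31 the largest adjusted p was 0.0410 for Pearson's r and 0.0448 for Spearman's rho. All p-values are two-sided from 100000 permutations, of which 1e-05 is the smallest they can give. The lists of 3 dentate granule cell genes (Prox1, Dsp and C1ql2) and 3 CA1 genes (Fibcd1, Wfs1 and Spink8) were added after the data were seen. Genes and markers were read from the same libraries, and whether dissection, cell numbers or expression moved them was not tested.

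In hippocampus (29 libraries) the dentate granule sum ranged from 321 to 693 CPM. Wnt16 rose with it (Pearson r = 0.77, p = 1e-05, adjusted p = 0.00103, permutation test; Spearman rho = 0.77, p = 2e-05, adjusted p = 0.00265; r = 0.74 without 2 libraries), as did Axin2 (r = 0.76, p = 2e-05, adjusted p = 0.00143; rho = 0.71, p = 6e-05, adjusted p = 0.00542; r = 0.72 without 2). Dkk3 fell with it (r = -0.71, p = 2e-05, adjusted p = 0.00143; rho = -0.69, p = 4e-05, adjusted p = 0.00413; r = -0.67 without 2). After the genotype means were taken out, r was 0.78 for Wnt16, 0.75 for Axin2 and -0.71 for Dkk3. Wnt9b (r = 0.63, rho = 0.64) and Lgr5 (r = -0.62, rho = -0.62) also passed. Libraries with a higher dentate granule marker sum thus tended to have more Wnt16 and Axin2 and less Dkk3.

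The CA1 sum ranged from 57.1 to 438 CPM, with 4 libraries above the rest at 267 to 438 (Mrpl40 het replicates 2 and 4, Slc25a1 het replicate 1 and double het replicate 5). Wnt2, a ligand with a median of 1.92 CPM in wild-type hippocampus, rose with it (r = 0.78, p = 1e-05, adjusted p = 0.00103, permutation test; rho = 0.67, p = 0.00014, adjusted p = 0.00867; r = 0.73 without 2). Wnt11 rose too (r = 0.81, rho = 0.76, r = 0.78 without 2), whereas Rspo1 fell (r = -0.66, rho = -0.59, r = -0.56 without 2; adjusted p = 0.00636 and 0.0288). Without the 4 highest libraries r was 0.48 for Wnt2, 0.58 for Wnt11 and -0.47 for Rspo1, each smaller in size than with them. In double het the Wnt11 call between tissues was lost without replicate 5, the library highest in CA1 genes among double het (0.92, adjusted p = 0.157, against 1.52 and 0.0169).

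Fzd6 followed glial and vascular markers in both tissues. In hippocampus its r was 0.83 with 10 astrocyte genes (p = 1e-05, adjusted p = 0.00103, permutation test; rho = 0.84, p = 1e-05, adjusted p = 0.00155; 0.78 without 2), 0.82 with microglia (rho = 0.86) and 0.80 with endothelial genes (rho = 0.82). In cortex r was 0.64, 0.55 and 0.61 and rho 0.64, 0.56 and 0.64, in the same order. Hippocampus Slc25a1 het replicate 7 held the highest Fzd6 (15.4 CPM) and the highest astrocyte (7232 CPM), microglia (501) and endothelial (320) sums of that tissue. How far these sums vary together was not tested. Lgr4 followed the astrocyte sum (r = 0.76 and rho = 0.70 in hippocampus, 0.65 and 0.62 in cortex), and Tcf7 (r = 0.72, rho = 0.64) and Lef1 (r = 0.62, rho = 0.60) the endothelial sum in hippocampus. There Tcf7 also followed the astrocyte sum (r = 0.58, rho = 0.63). Lrp5 followed both sums in hippocampus (r = 0.57, rho = 0.64 with astrocyte and r = 0.57, rho = 0.62 with endothelial genes). The astrocyte sum was 4460 to 5503 CPM in cortex and 4851 to 7232 in hippocampus. It was thus higher, with overlap, in the tissue where Lgr4 was higher. Its genes differed in direction. Medians of Aldh1l1 (76.04 CPM in cortex, 52.86 in hippocampus), Gjb6 (54.95 and 54.15) and Aldoc (757 and 746) were lower in hippocampus. The rest of the list had higher medians there, among them Slc1a2, the most abundant (2911 and 3034). The part of the astrocyte sum in the Lgr4 difference was not tested.

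In cortex (30 libraries) the sum of 10 meningeal fibroblast genes ranged from 15.6 to 129 CPM. Wnt6 followed it (r = 0.79, p = 1e-05, adjusted p = 0.00103, permutation test; rho = 0.85, p = 1e-05, adjusted p = 0.00155; 0.81 without 2), as did Wnt5a (r = 0.79, rho = 0.73), Fzd7 (r = 0.77, rho = 0.73) and Wnt16 (r = 0.63, rho = 0.58). The meningeal sum was 44.5 to 121 CPM in hippocampus, where Wnt6 was lower than in cortex. The genes of that list differed in direction between the tissues. Medians of Fmod (9.68 CPM in cortex, 4.48 in hippocampus), Slc22a6 (4.19 and 3.12) and Col1a2 (9.797 and 9.588) were lower in hippocampus. The rest of the list had higher medians there, among them Lum (1.12 in cortex, 5.38 in hippocampus). The part of the meningeal genes in the tissue difference of Wnt6 was not tested. With genotype means taken out, r was 0.81 for Wnt6 and 0.84 for Wnt5a. Rspo2 rose with 10 oligodendrocyte genes in cortex (r = 0.66, rho = 0.69), whereas Fzd3 (r = -0.65, rho = -0.60) and Wnt9a (r = -0.56, rho = -0.65) fell with them. Rspo1 in cortex rose with the sum of 9 genes listed as thalamic (r = 0.55, rho = 0.60, adjusted p = 0.0334 and 0.0214). Of that list Slc17a6 had the highest median in cortex (35.5 CPM), while Lhx9 had a median of 0.434 and Gbx2 was 0 in 17 libraries. Whether thalamic tissue was present was not tested.

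**Figure D4:**
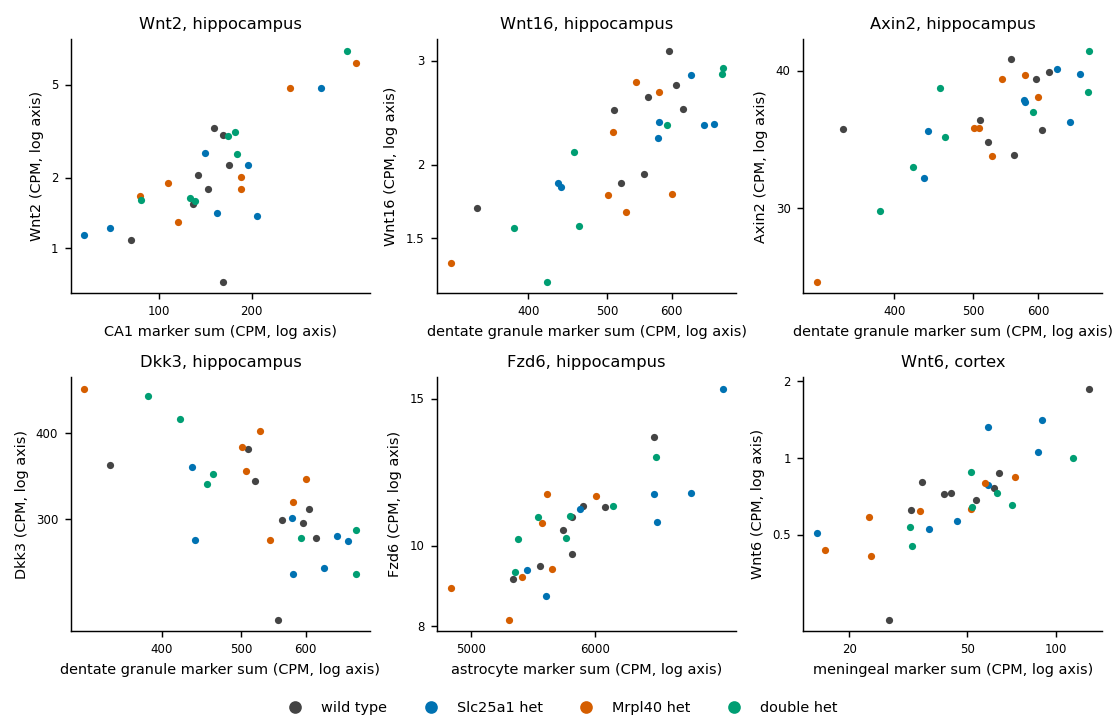
Level of a gene (y axes, CPM, log) against the summed level of a marker list (x axes, CPM, log) in each library, coloured by genotype. The plots show Wnt2, Wnt16, Axin2, Dkk3 and Fzd6 in hippocampus (n = 29) and Wnt6 in cortex (n = 30). Points of the 4 genotypes overlap in each plot, and Dkk3 slopes downward (r = -0.71). In the CA1 plot 4 libraries lie far right, and none of them is wild type.

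The study's own question was the effect of the 2 alleles, alone and together. None of the 47 genes tested in cortex and the 46 tested in hippocampus passed the test in any of the 12 genotype comparisons, by edgeR or by DESeq2. In cortex, Slc25a1 het against wild type called 0 of 47 genes (0% of 20394), and 1 had an unadjusted p under 0.05 (3.17% of all genes). Mrpl40 het called 0 (0.0294% of all genes), with 2 at an unadjusted p under 0.05 (6.94%), and double het called 0 (0.0686%), with 5 (10.9%). Double het against Slc25a1 het called 0 (0.0588%), with 3 at an unadjusted p under 0.05 (9.92%), against Mrpl40 het 0 (0.00490%), with 3 (6.94%), and the interaction of the alleles 0 (0%), with 0 (5.35%). In hippocampus, in the same order, 0 of 46 genes were called in each (0%, 0.00496%, 0.00992%, 0%, 0% and 0% of 20162 genes). There 4, 4, 2, 4, 4 and 4 genes had an unadjusted p under 0.05, against 7.77%, 8.19%, 5.28%, 9.04%, 4.68% and 3.39% of all genes. The unadjusted counts of DESeq2 were 1, 2, 4, 3, 4 and 0 in cortex and 4, 4, 2, 6, 5 and 4 in hippocampus. As shares of the genes tested, the edgeR counts were 0% to 10.6% in cortex and 4.35% to 8.70% in hippocampus. Comparisons with wild type share the wild-type libraries.

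Rspo1 averaged 24.4 ± 2.50, 23.0 ± 3.56, 22.1 ± 1.63 and 23.0 ± 4.86 CPM in cortex (wild type first, then Slc25a1 het, Mrpl40 het, double het), and 1.61 ± 0.504, 1.47 ± 0.503, 1.42 ± 0.407 and 1.32 ± 0.552 in hippocampus (SD). The groups overlapped in each tissue. Its log2 differences from wild type were -0.09 ± 0.10, -0.15 ± 0.10 and -0.10 ± 0.10 in cortex and -0.14 ± 0.23, -0.20 ± 0.23 and -0.28 ± 0.23 in hippocampus. Its interaction was 0.14 ± 0.15 in cortex and 0.05 ± 0.33 in hippocampus.

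In cortex the smallest p-values belonged to Lef1 and Dkk3 in double het. Lef1 was 3.09 to 4.63 CPM in wild type (median 4.33) and 2.49 to 3.67 in double het (median 3.35), with overlap (-0.32 ± 0.10, unadjusted p = 0.00366 and adjusted p = 0.225 in edgeR). Dkk3 was 309 to 393 CPM in wild type (median 349) and 364 to 439 in double het (median 410), also with overlap (0.21 ± 0.07, adjusted p = 0.274). Neither passed the test over all genes. Against Slc25a1 het, double het had Lef1 at -0.33 ± 0.11 (adjusted p = 0.270) and Rspo2 at 0.48 ± 0.19 (0.360). Against Mrpl40 het it had Dkkl1 at -0.18 ± 0.06 (0.549) and Lrp6 at 0.08 ± 0.04 (0.682). In Slc25a1 het, Fzd6 (-0.21 ± 0.08) and Sfrp1 (0.18 ± 0.10), and in Mrpl40 het, Wnt2 (0.35 ± 0.16) and Rspo3 (-0.15 ± 0.07), had the smallest p-values, with adjusted p-values of at least 0.698. In the interaction these were Lrp6 (0.09 ± 0.05) and Fzd8 (0.26 ± 0.15).

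In hippocampus the smallest p-values belonged to the R-spondin receptors. Lgr4 was 40.0 to 47.0 CPM in wild type (median 42.7) and 43.8 to 50.0 in Slc25a1 het (median 46.1), with overlap (0.14 ± 0.04, adjusted p = 0.457 in edgeR). Lgr6 was 6.35 to 8.11 CPM in wild type (median 7.44) and 4.88 to 7.56 in Mrpl40 het (median 5.6), with overlap (-0.36 ± 0.12, adjusted p = 0.587). The astrocyte sum, with which Lgr4 varied, was highest in 3 libraries of Slc25a1 het, and its part was not tested. Next came Ror1 in Slc25a1 het (0.30 ± 0.12, adjusted p = 0.593), Sfrp4 in Mrpl40 het (0.45 ± 0.17, 0.590), and Fzd5 (0.28 ± 0.13, 0.925) and Rspo3 (-0.27 ± 0.13, 0.934) in double het. Double het differed from Slc25a1 het by -0.13 ± 0.04 in Lgr4 (0.422) and 0.49 ± 0.18 in Wnt5b (0.479), and from Mrpl40 het by 0.39 ± 0.12 in Lgr6 and 0.87 ± 0.35 in Dkk2 (0.958 for both). The interaction was 0.60 ± 0.23 for Wnt10a and 1.34 ± 0.55 for Dkkl1 (0.999 for both). In the tests of unlike effects in the tissues the smallest p-values were those of Fzd6 (0.28 ± 0.13) and Lgr4 (0.13 ± 0.06) for Slc25a1 het, Fzd10 (0.91 ± 0.37) and Sfrp4 (0.42 ± 0.18) for Mrpl40 het, and Lef1 (0.39 ± 0.17) and Wnt5b (0.42 ± 0.24) for double het, with adjusted p-values of at least 0.816.

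**Figure D5:**
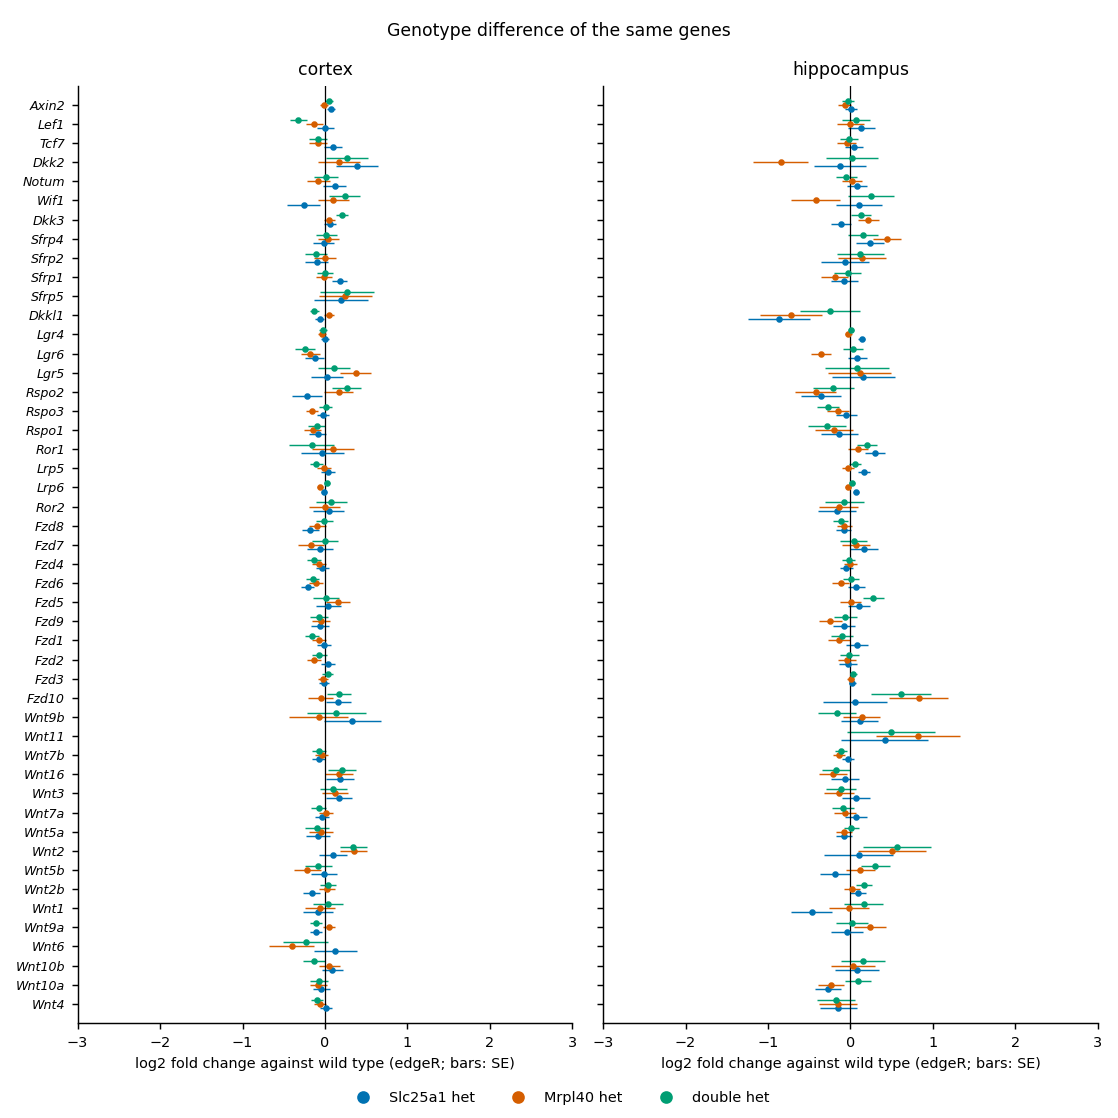
Log2 difference from wild type (x axis, with SE bars) of the tested genes in cortex and hippocampus for the 3 heterozygous genotypes, coloured by genotype. Most points lie close to 0 beside the tissue differences, Lef1 in cortex double het is at -0.32, and none passed an adjusted p of 0.05.

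Among genes whose mean log2 CPM was 1 or more, the median SE of a difference from wild type was 0.0914 to 0.0925 in cortex and 0.122 to 0.123 in hippocampus, and 32 and 30 genes were in this range. Differences of about 3 times their SE, such as those of Lef1 in cortex double het and Lgr6 in hippocampus Mrpl40 het, did not pass the adjustment over all genes, and a p that misses the threshold does not show that the genotypes were alike. Of the 55 further pathway genes, 0 passed the test in any genotype comparison in edgeR (52 tested in cortex and 53 in hippocampus).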

How the data were processed

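The values used were the raw read counts per gene in the authors' deposited table, in which each library has a column. Reads were handled with FastQC, HISAT2, featureCounts and DESeq2 on mm39 (GRCm39), per the submitters' processing notes. The sources used here do not give the annotation, the versions or the strand setting of the counting. The libraries were made with a directional kit, per the labels' protocols. All count columns matched a sample.

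Counts were analysed with edgeR 4.0.16 (limma 3.58.1, R 4.3.3): TMM scaling, the package's filter on low counts, robust quasi-likelihood tests and a false discovery rate of 0.05 over all genes tested. Genotype comparisons fitted all 4 genotypes of a tissue, and the interaction is what remains of the double het difference after both single differences are subtracted (log2). Tissue comparisons fitted the 29 animals with both tissues with the animal as a block. Deviations from the group mean of the same animal's tissues correlated weakly across genes (median r = 0.0550, from 0.0193 to 0.139). For tissues of unlike animals the median was -0.00281, from -0.114 to 0.113, so the ranges overlapped. The animal numbers come from the labels. Exon lengths and positions came from GENCODE vM21 (GRCm38), which matched all 54 genes and was used for no count. Relations used log2 of CPM plus 0.5. Alternatives were DESeq2 1.42.0, DESeq2 size factors, no filter, a block for the replicate number, leaving out the animal block, only the genotypes compared, each replicate left out, and fits without the 6 animals whose Slc25a1 level went against the label. A fit without the animals of 4 hippocampus libraries apart in markers was added after seeing the data. The scripts were tested on simulated data. Python 3.11.15 was used for levels and figures.

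The genes, lists and tests were chosen with earlier results of these data known. Named with values were up to 12 genes per direction past the test between wild-type tissues, the 2 smallest p-values of each genotype comparison, Rspo1 throughout, the gene with the highest level in each role, and up to 4 further pathway genes. Other named genes were chosen after their values were seen. Protein sequences were not used.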

Additional observations from a re-analysis of the deposited data

Results flagged for a closer look

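Among 272 groups (34 genes, 2 tissues, 4 genotypes), 33 held a library far from the rest by Dixon's test. Those 34 genes were picked for the largest tissue differences or the smallest p-values, plus Rspo1, with no limit on counts. Chance flags about 1 in 20 groups, a share that does not allow for this choice. Values are CPM, highest of their group unless stated.

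Several fell in hippocampus libraries named above as standing apart in markers (wild type replicate 8, Slc25a1 het replicate 3 and Mrpl40 het replicate 5). Others fell in libraries that were high in a marker list but not among those named as apart. Hippocampus wild type replicate 8, low in hippocampal and high in neocortical markers, held Dkk2 at 1.99, Rspo2 at 36.0, Sfrp1 at 5.27 and Wnt10b at 1.15. Hippocampus Slc25a1 het replicate 3, with the cerebellar sum of 592 CPM, held Fzd7 at 16.3, Wnt3 at 3.45, Wnt6 at 0.791 and Wnt7a at 20.3. Cortex wild type replicate 8, with the highest meningeal sum in cortex (129 CPM), held Fzd7 at 7.81, Wnt3 at 1.5, Wnt6 at 1.87 and Wnt9b at 0.901. Wnt11 (0.949), Wnt2 (4.86) and Ror1 (11.6) in hippocampus Slc25a1 het replicate 1, and Wnt11 (1.32) and Wnt2 (6.98) in double het replicate 5, belonged to libraries high in CA1 genes. Hippocampus Mrpl40 het replicate 5, high in choroid plexus genes, held Wnt5b at 2.47. Whether the markers account for these values was not tested.

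The 2 genes with the largest falls, Rspo1 (2.78) and Dkkl1 (3.52), were both highest in hippocampus wild type replicate 6, where neocortical markers summed to 619 CPM and CA1 markers to 80.7.

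The rest were single values. In wild type these were Fzd10 (1.88) and Sfrp4 (4.44) in cortex replicate 4, Wnt7b (28.7) in cortex replicate 2, Wnt11 (0.424) in cortex replicate 1, Fzd6 (13.5) in hippocampus replicate 4 and Wnt7a (15.8) in hippocampus replicate 2. In Slc25a1 het they were Wnt3 (2.26, cortex replicate 4), Wnt7a (4.94, the lowest, cortex replicate 7) and Fzd6 (15.4, hippocampus replicate 7). In Mrpl40 het they were Fzd10 (2.09, cortex replicate 1), Sfrp2 (2.30, cortex replicate 4) and Lgr6 (7.56, hippocampus replicate 6), and in double het Lef1 (2.49, the lowest, cortex replicate 7).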

How the results depend on the processing

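The number of the 48 genes called between wild-type tissues was 35 to 37 under the other settings and 35 to 38 with 1 animal left out, against 36, and in double het it was 32 without the 6 animals whose Slc25a1 level went against the label, against 38. Under every alternative run, DESeq2 included, 0 genes passed in any genotype comparison or test of unlike effects. Without the animal block (no replicate block) 37 were called in wild type. Replicate numbers within a tissue did not pair the libraries (median r = 0.0189 in cortex, -0.103 to 0.159, with 6 libraries closest to their own number, and 0.0152 in hippocampus, -0.119 to 0.161, with 3), and with the replicate number as a block 0 genes were called, as without it. Uncalled log2 differences of Rspo1 changed sign, the cause of which was not tested. Without the 6 animals whose Slc25a1 level went against the label they were 0.0174 (cortex Slc25a1 het), 0.0705 (cortex double het), 0.0531 (cortex double het against Slc25a1 het), 0.138 (hippocampus Slc25a1 het), -0.166 (hippocampus interaction), and 0.0987 and 0.0743 (unlike effects of Slc25a1 het and of Mrpl40 het). Without the animals of libraries apart in markers the hippocampus interaction was -0.0545. With 1 library or animal left out they ranged from -0.198 to 0.0901 (unlike effects of Slc25a1 het), -0.131 to 0.0896 (of Mrpl40 het), -0.0848 to 0.0659 (cortex double het against Slc25a1 het), -0.0282 to 0.123 (against Mrpl40 het), -0.306 to 0.0285 (hippocampus Slc25a1 het), -0.349 to 0.0198 (double het against Slc25a1 het), -0.286 to 0.00578 (against Mrpl40 het) and -0.149 to 0.220 (interaction). Leaving out cortex or hippocampus libraries more than 3 times the median in choroid plexus markers removed 0 libraries and gave no fit of its own. Between tissues, Rspo1 stayed at -4.31 to -3.85 in all 4 genotypes with 1 animal left out. Depth limits the genes below the filter and those with few counts per library, such as Wnt11 and Sfrp5.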
